A study of Mus musculus with 6 samples.

Results

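The genes that encode the enzymes and carriers of steroid hormone synthesis were followed in ovaries of mice aged 1 day post partum (dpp). The set held 9 genes, found by symbol among the 47122 gene models of the deposited table: Star, Cyp11a1, Fdx1, Hsd3b1, Cyp17a1, Hsd17b1, Hsd17b7, Cyp19a1 and Srd5a1. Steroid hormones are made from cholesterol by a chain of such enzymes. StAR, the product of Star, carries cholesterol to the inner mitochondrial membrane, where CYP11A1 cuts its side chain to give pregnenolone with electrons passed on by the iron-sulphur protein FDX1. A 3-beta-hydroxysteroid dehydrogenase (3-beta-HSD) then yields progesterone, CYP17A1 leads to androgens, 17-beta-HSD enzymes reduce the 17-keto group, and aromatase, encoded by Cyp19a1, makes oestrogens. In adult mouse ovaries theca cells supply androgens and granulosa cells convert them to oestradiol as follicles grow. At birth the ovary holds oocytes that are being enclosed in primordial follicles.

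The study compared 3 libraries of total RNA from Bcas2 cKO (conditional knockout) ovaries, in which Bcas2, a gene for a subunit of the pre-mRNA splicing machinery, was deleted in oocytes, with 3 libraries from WT (wild-type) ovaries of the same age. The sources used here do not give the driver of the deletion, the exons removed, the strain or any pooling of ovaries. The p-values set the difference between groups against the spread of these samples only. Part of that spread may be technical, and what the replicates stand for is not known. One label speaks of granulosa cells, whereas title, tissue and design give ovary, and oocyte, pregranulosa, stroma and epithelium markers were all present, and the libraries were treated as whole ovary. In such bulk samples, fewer cells of a type and less RNA per cell cannot be told apart. No enzyme activity or hormone was measured.

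Reads recovered from the deposited FPKM (fragments per unit of gene length and of sequencing depth) summed to between 16800421 and 19565275 per library. The library size implied by the FPKM was between 0.962 (WT replicate 1) and 1.03 (cKO replicate 1) times these reads. Median-of-ratios factors were 1.0007 in every library, as for values already scaled that way. The deposited values were thus not scaled by total reads alone. Bcas2 itself stood at 18.9, 21.9 and 18.3 FPKM in cKO replicates 1, 2 and 3, against 54.5, 37.5 and 35.7 FPKM in the WT replicates. These groups did not overlap, with a log2 fold change of -1.05 (SE 0.17) on the log2(FPKM + 1) scale, yet the adjusted p was 0.955 in limma with Benjamini-Hochberg adjustment over all 14589 tested genes. No gene of the table passed the adjusted threshold of 0.05, where the smallest adjusted p was 0.484 in limma, and 443 genes had an unadjusted p under 0.05. One library stood apart: WT replicate 1 was the highest library for 27.6% of the tested genes and the lowest for 28.5%. For cKO replicate 2 these shares were 21.5% and 20.4%. WT replicate 1 was the highest for 13 of 13 stroma and interstitial markers and 14 of 14 endothelial markers. Stroma markers summed to 557, 435 and 493 FPKM in the cKO libraries, against 1469, 692 and 435 FPKM in WT. Endothelial markers summed to 84.6, 65.3 and 73.4 FPKM in cKO, against 246, 80.8 and 55.4 FPKM in WT. Oocyte markers summed to 1182 to 1567 FPKM in cKO and 1066 to 1601 FPKM in WT, and pregranulosa markers to 823 to 968 FPKM in cKO and 762 to 1011 FPKM in WT. Erythroid markers summed to 13718 FPKM in cKO replicate 2 and to between 406 and 1239 FPKM in the other libraries. Mesonephric and oviduct epithelium markers summed to 85.7, 91.2 and 105 FPKM in cKO, against 79.2, 92.4 and 81.4 FPKM in WT. Of 8 tested, 6 had higher and 2 lower means in cKO, with a median log2 fold change of 0.42. In limma 4 of the 8 had an unadjusted p under 0.05, beside 3.04% of all tested genes, and the smallest adjusted p was 0.883.

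Every one of the 9 genes had reads in all 6 libraries, so no step of the pathway was listed at 0. The levels nevertheless spanned a wide range. Hsd3b1 averaged 33.0 FPKM over the 6 libraries, above 90.9% of the protein-coding gene models. Fdx1 and Star averaged 7.38 and 5.22 FPKM, above 66.1% and 60.7% of them. Hsd17b7 averaged 3.08 FPKM and Srd5a1 1.76 FPKM. Cyp11a1 and Cyp17a1 lay near 1 FPKM, at means of 1.22 and 1.14 FPKM. Hsd17b1, at a mean of 0.660 FPKM, and Cyp19a1, at 0.206 FPKM, stayed below 1 FPKM in all 6 libraries. Aromatase was thus the lowest step of the set, above 32.8% of the protein-coding gene models.

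**Figure D1:**
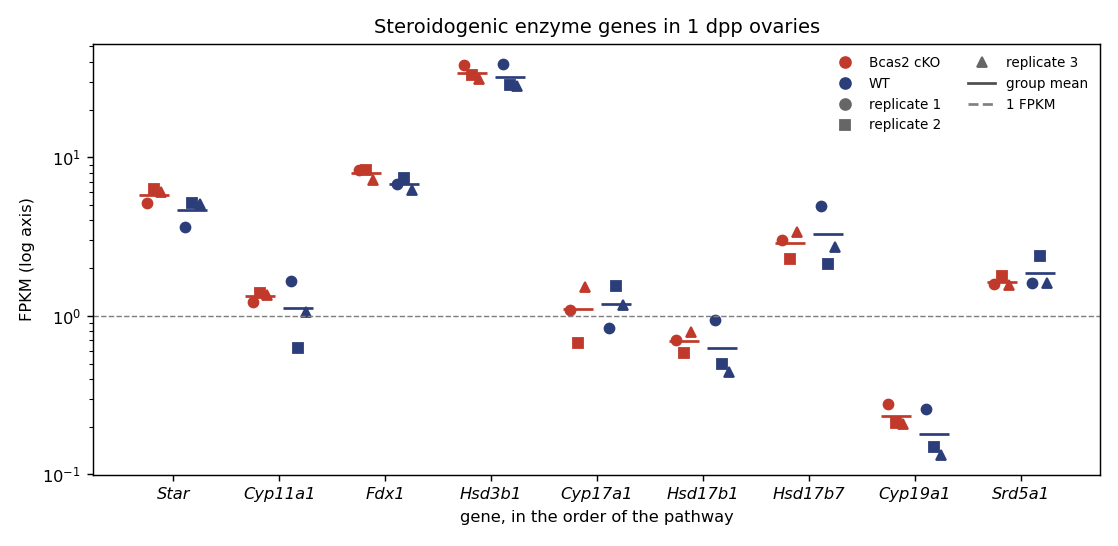
FPKM (log axis) of the 9 genes in the order of the pathway, with 3 Bcas2 cKO libraries left of 3 WT libraries for each gene. Points are libraries, short lines are group means and the dashed line marks 1 FPKM; Hsd3b1 lies highest, at 28.1 to 39.0 FPKM, and Cyp19a1 lowest, at 0.132 to 0.279 FPKM.

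Neighbours in that order were set side by side within each library. Hsd3b1 lay above Fdx1 in 6 of 6 libraries with no overlap of their ranges, at 4.48 times its mean. Fdx1 lay above Star in 6 of 6 libraries too, although the ranges met, with 6.20 FPKM as the lowest Fdx1 value and 6.30 FPKM as the highest Star value. The next pairs, Star above Hsd17b7, Hsd17b7 above Srd5a1, and Srd5a1 above Cyp11a1, each held in 5 of 6 libraries with overlapping ranges. Cyp11a1 was above Cyp17a1 in 3 of 6 libraries, so these neighbours were not ordered beyond their spread at the table's lengths. At the low end, Cyp17a1 was above Hsd17b1 in 5 of 6 libraries, and Hsd17b1 above Cyp19a1 in 6 of 6 with no overlap, at 3.19 times its mean. These levels depend on the gene length used for scaling. For other lengths the same reads were only rescaled. They were not recounted, so reads outside a shorter transcript were kept. The table gives Hsd17b1 a length of 2445 bases, whereas its longest coding transcript in GENCODE M21 has 1339 bases. At the shorter length its values would run between 0.803 and 1.71 FPKM and reach 1 FPKM in 4 of 6 libraries. Cyp17a1 has 1841 bases in the table and 2403 bases in GENCODE, at which it would reach 1 FPKM in 2 of 6 libraries. Cyp11a1 has 3137 bases in the table and 2120 bases in GENCODE, at which its mean would be 1.81 FPKM. With GENCODE lengths for all 9 genes the middle of the order turns: Hsd17b1, at a mean of 1.20 FPKM, would lie above Cyp17a1, at 0.873 FPKM, in 4 of 6 libraries. Cyp11a1 would lie above Cyp17a1 in 5 of 6 libraries and below Srd5a1 in 3 of 6. The other neighbours would keep their counts of libraries. Cyp19a1 would stay below 1 FPKM in all 6 libraries at either length.

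For comparing the groups, genes with at least 1 FPKM in at least 3 of 6 libraries were tested, which 7 of the 9 genes passed. None of the 7 rose or fell in cKO ovaries, where 0% of all tested genes were called. None had an unadjusted p under 0.05 either, which 3.04% of all tested genes had. Means were higher in cKO for 4 of the 7 (Star, Fdx1, Cyp11a1 and Hsd3b1) and lower for 3 (Cyp17a1, Hsd17b7 and Srd5a1). Of all 14589 tested genes, 7098 were higher and 7491 lower. The median log2 fold change of the 7 was 0.10, beside -0.0058 over all tested genes. Star was the 1 gene of the 7 with every cKO value above every WT value, which 4.2% of all tested genes showed, and none had every cKO value below every WT value, which 3.67% showed. The 95% intervals of the 7 reached between 0.27 and 0.60 to either side on the log2 scale, before any adjustment over genes. Changes well beyond those bounds could also miss the adjusted threshold, as Bcas2 did.

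**Figure D2:**
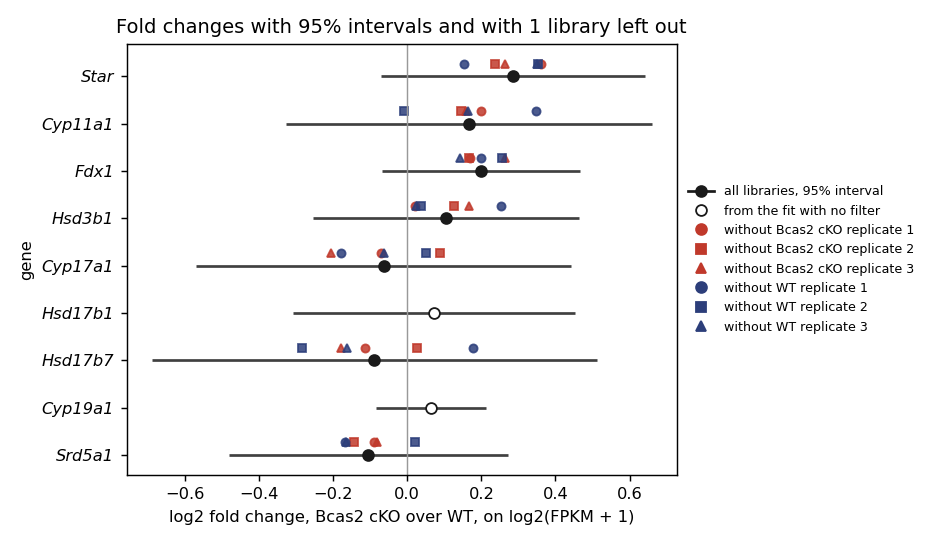
Log2 fold change of Bcas2 cKO over WT on log2(FPKM + 1), with 95% intervals from limma; small symbols above each line give the value with 1 library left out, and open circles are the 2 genes below the filter, taken from the fit with no filter. All 9 intervals include 0, and the small symbols of Cyp11a1, Cyp17a1, Hsd17b7 and Srd5a1 lie on both sides of 0.

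Cholesterol transport came first in the pathway. Star (gene ID 20845; chromosome 8, 26298502 to 26306010, plus strand, protein-coding, in GRCm39 as for the members that follow) had 5.13, 6.30 and 6.03 FPKM in the cKO replicates, against 3.64, 5.12 and 5.10 FPKM in the WT replicates. The groups did not overlap, but the lowest cKO value and the highest WT value were almost equal, and WT replicate 1 was the lowest of all. The means were 5.82 ± 0.611 FPKM in cKO and 4.62 ± 0.847 FPKM in WT (SD, n = 3 each), a ratio of 1.26. The log2 fold change was 0.29 with an SE of 0.15 (95% interval -0.07 to 0.64), with an adjusted p of 0.955 in limma. Without WT replicate 1 it was 0.15. Star had between 257 and 452 reads per library, and no 50-base stretch of its transcripts occurred in another GENCODE M21 gene.

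Side-chain cleavage needs CYP11A1 and its electron carrier, and their genes differed in level. Fdx1 (gene ID 14148; chromosome 9, 51854323 to 51874902, minus strand) had 8.33, 8.36 and 7.19 FPKM in cKO, against 6.79, 7.41 and 6.20 FPKM in WT. The highest WT value exceeded the lowest cKO value, so the groups overlapped. Their means were 7.96 ± 0.667 FPKM in cKO and 6.80 ± 0.606 FPKM in WT (SD, n = 3 each), which gave a log2 fold change of 0.20 with an SE of 0.11 (interval -0.07 to 0.47; limma adjusted p = 0.955). Of the members, Fdx1 varied least between replicates of a group, with a coefficient of variation (CV) of 8.63%, where read counting alone gives 4.71%.

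Cyp11a1 (gene ID 13070; chromosome 9, 57905307 to 57934314, plus strand) had 1.23, 1.40 and 1.36 FPKM in cKO, against 1.66, 0.624 and 1.06 FPKM in WT. The cKO libraries lay close together and inside the WT range, whose ends were WT replicates 1 and 2. Means were 1.33 ± 0.0901 FPKM in cKO and 1.12 ± 0.522 FPKM in WT (SD, n = 3 each), a log2 fold change of 0.17 (SE 0.21; limma adjusted p = 0.955). The gene rested on 67, 74 and 79 reads in cKO and 91, 34 and 65 reads in WT. Its within-group CV, pooled over both groups, was 30.6%, against 12.1% from counting alone. The excess lay in the WT libraries (SD 0.522 FPKM), while the cKO libraries spread little (SD 0.0901 FPKM). Of its 50-base stretches, 2.06% also occur in other genes. The log2 fold change was -0.0089 without WT replicate 2 and 0.35 without WT replicate 1.

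RefSeq places more than one start at Cyp11a1 and Cyp19a1, and windows around starts (250 bases before to 50 after, build GRCm38.p6) were at hand for 6 of the 9 genes, 9 windows in all. They were searched on both strands for AGGTCA, the half-site of nuclear receptors such as NR5A1 (SF-1), the regulator of steroidogenic genes. AGGTCA occurred in 2 of the 9 windows, 1 at Cyp11a1 and 1 at Cyp19a1, and in 16.3% of all 32851 windows of that length. The other windows of these 2 genes did not hold it. CAAGGNCA, a longer form of the NR5A1 site, occurred in 1 of the 9, at Cyp19a1, and in 6.71% of all windows, and its match there does not overlap AGGTCA, which it would contain if its N were T. TATAAA occurred in 2 of the 9 windows, both at Cyp19a1 and both without AGGTCA, and in 13.6% of all. The 250 bases before the start are shown for the 2 windows with AGGTCA, which is in capitals (TGACCT where it lies on the other strand), to show where the motif lies at a low and at the lowest gene of the set. The first lies at chr9:58014702-58014951 on the plus strand with the motif beginning 28 bases before the start, and the second at chr9:54268165-54268414 on the minus strand with the motif beginning 81 bases before it.
Cyp11a1 start: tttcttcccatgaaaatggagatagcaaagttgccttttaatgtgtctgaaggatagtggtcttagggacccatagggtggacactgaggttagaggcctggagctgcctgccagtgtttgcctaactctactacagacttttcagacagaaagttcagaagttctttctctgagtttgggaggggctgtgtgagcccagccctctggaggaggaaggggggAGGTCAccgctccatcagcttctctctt
Cyp19a1 start: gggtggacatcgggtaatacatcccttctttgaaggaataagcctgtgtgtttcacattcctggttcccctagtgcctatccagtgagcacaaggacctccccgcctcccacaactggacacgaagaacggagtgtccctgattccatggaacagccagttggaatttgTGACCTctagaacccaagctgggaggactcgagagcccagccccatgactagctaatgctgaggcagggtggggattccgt
Nr5a1 stood at 40.2, 42.9 and 44.2 FPKM in cKO, against 38.8, 46.8 and 34.7 FPKM in WT. A match of letters is a description of the window and no evidence of binding, which was not measured. Which start is used in these ovaries was not measured either.

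The step to progesterone had the most abundant transcript. Hsd3b1 (gene ID 15492; chromosome 3, 98749672 to 98767110, minus strand) had 38.3, 33.0 and 31.1 FPKM in cKO, against 39.0, 28.7 and 28.1 FPKM in WT. Replicate 1 was the highest of each group and the groups overlapped. Means were 34.1 ± 3.73 FPKM in cKO and 31.9 ± 6.11 FPKM in WT (SD, n = 3 each), which gave a log2 fold change of 0.10 with an SE of 0.15 (interval -0.25 to 0.46; limma adjusted p = 0.960). That value was 0.02 without cKO replicate 1 and 0.25 without WT replicate 1. With 996 to 1359 reads per library, counting alone gives a CV of 2.92%, where the within-group CV was 15.3%. Of the 50-base stretches of its transcripts, 4.86% also occur in other genes, most of them in the gene model Gm12431, so a small share of its reads may be divided between genes.

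Hsd3b6, a close relative of Hsd3b1 that in the mouse is known from adult Leydig cells, was the second 3-beta-HSD gene of this kind with a level above 1 FPKM. It had 5.68, 5.70 and 2.16 FPKM in cKO, against 4.68, 6.30 and 5.65 FPKM in WT. The library of cKO replicate 3 was the low one. Hsd3b1 was 6.74, 5.79 and 14.4 times Hsd3b6 in the cKO replicates, against 8.33, 4.55 and 4.97 times in WT. The log2 fold change of Hsd3b6 was -0.32 (SE 0.30; limma adjusted p = 0.955), and 0.04 without cKO replicate 3. Since 15.7% of its 50-base stretches occur in other genes, most in Hsd3b2, its level is less certain. The other family members were near or at the floor: Hsd3b2 had at most 2 reads in a library, Hsd3b3 between 4 and 10 reads, and Hsd3b4 and Hsd3b5 were listed at 0 in all 6 libraries, which allows at most 0.0979 and 0.111 FPKM at 3 reads. Hsd3b7, an enzyme of bile acid synthesis, had 12.4 ± 0.301 FPKM in cKO and 11.2 ± 0.638 FPKM in WT (SD, n = 3 each), with a limma adjusted p of 0.955. Every cKO value of Hsd3b7 lay above every WT value, which 4.2% of all tested genes showed.

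The 250 bases before the starts of both expressed relatives are shown because the genes differ in level and in their order across libraries. They lie at chr3:98859795-98860044 for Hsd3b1 and chr3:98814444-98814693 for Hsd3b6, on the minus strand of GRCm38.p6 (RefSeq).
Hsd3b1 start: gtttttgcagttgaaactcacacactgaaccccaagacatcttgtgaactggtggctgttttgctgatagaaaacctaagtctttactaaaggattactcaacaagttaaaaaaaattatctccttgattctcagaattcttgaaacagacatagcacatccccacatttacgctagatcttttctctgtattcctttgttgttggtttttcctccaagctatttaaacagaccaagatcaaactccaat
Hsd3b6 start: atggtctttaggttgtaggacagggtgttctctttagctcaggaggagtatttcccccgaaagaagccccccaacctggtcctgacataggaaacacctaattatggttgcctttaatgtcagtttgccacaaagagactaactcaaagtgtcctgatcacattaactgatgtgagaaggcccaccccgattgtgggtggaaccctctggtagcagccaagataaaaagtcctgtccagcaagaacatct
In a global alignment, 133 of 216 aligned bases were identical (61.6%), with 68 bases in gaps. That share leaves out the bases in gaps, and the share for unrelated windows was not measured, so it is no measure of conservation. Neither window holds AGGTCA, so no base is in capitals.

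Androgen synthesis was represented by Cyp17a1 (gene ID 13074; chromosome 19, 46655604 to 46661439, minus strand), which had 1.09, 0.678 and 1.52 FPKM in cKO, against 0.842, 1.53 and 1.17 FPKM in WT. High and low libraries were found in both groups, and the ranges were alike. Means were 1.10 ± 0.424 FPKM in cKO and 1.18 ± 0.346 FPKM in WT (SD, n = 3 each), which gave a log2 fold change of -0.06 with an SE of 0.21 (interval -0.57 to 0.44; limma adjusted p = 0.983). The gene just passed the filter, with 1 FPKM or more in 4 libraries, and rested on 21 to 52 reads per library. An antisense long non-coding RNA, Gm41857, overlaps it and had at most 0.0331 FPKM. Leaving out cKO replicate 2 gave 0.09 and leaving out WT replicate 2 gave 0.05. The list of 9 theca and Leydig cell markers, which shares 4 genes with the members, ran from near the floor to Hsd3b1. Insl3, a hormone of those cells, had at most 5 reads in a library, and Hsd17b3, the testicular androgenic 17-beta-HSD, at most 12. Ptgds, a prostaglandin D synthase, had 6.26, 8.19 and 9.25 FPKM in cKO, against 6.43, 5.90 and 6.45 FPKM in WT. Lhcgr, the receptor for luteinizing hormone, had 1.12, 1.20 and 1.66 FPKM in cKO, against 0.712, 0.882 and 1.03 FPKM in WT. Every cKO value of Lhcgr lay above every WT value, which 4.2% of all tested genes showed. Its log2 fold change was 0.31 (SE 0.17, limma adjusted p = 0.955).

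Reduction at position 17 was covered by a pair of members. Hsd17b1 (gene ID 15485; chromosome 11, 100968792 to 100972014, plus strand), the granulosa cell enzyme that makes oestradiol from oestrone, had 0.706, 0.583 and 0.795 FPKM in cKO, against 0.939, 0.495 and 0.440 FPKM in WT. It reached 1 FPKM in 0 of 6 libraries and was not tested, with 24 to 36 reads per cKO library and 21 to 40 reads per WT library. The cKO values lay inside the WT range. Means were 0.695 ± 0.106 FPKM in cKO and 0.624 ± 0.274 FPKM in WT (SD, n = 3 each). In the fit with no filter on low values its log2 fold change was 0.07 (SE 0.16; limma adjusted p = 0.942).

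Hsd17b7 (gene ID 15490; chromosome 1, 169777104 to 169796913, minus strand), an enzyme of both oestradiol and cholesterol synthesis, had 2.99, 2.29 and 3.38 FPKM in cKO, against 4.94, 2.14 and 2.71 FPKM in WT. WT replicate 1 stood above the other 5 libraries. Means were 2.89 ± 0.554 FPKM in cKO and 3.26 ± 1.48 FPKM in WT (SD, n = 3 each), a log2 fold change of -0.09 (SE 0.25; limma adjusted p = 0.978), which was 0.18 without that library. Its within-group CV of 36.4% was the highest of the 9, against 5.66% from counting alone. Of the other 17-beta-HSD genes, 6 of 10 were tested and none rose or fell, with a median log2 fold change of 0.12. Means were higher in cKO for all 6, beside 7098 of all 14589 tested genes. Hsd17b10, a mitochondrial enzyme with many substrates, had 83.7 ± 2.79 FPKM in cKO and 72.8 ± 6.90 FPKM in WT (SD, n = 3 each). Its cKO values all lay above its WT values, which 4.2% of all tested genes showed. The log2 fold change was 0.20 (limma adjusted p = 0.955). Hsd17b8 and Hsd17b2 had log2 fold changes of 0.14 and 0.26 with the same adjusted p in limma. Without WT replicate 1 the values were 0.12 for Hsd17b10, 0.07 for Hsd17b8 and 0.09 for Hsd17b2. Hsd17b6 was listed at 0 in all 3 cKO libraries and in WT replicate 2, and had at most 2 reads elsewhere.

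Aromatase, which turns androgens into oestrogens, was the step closest to the floor. Cyp19a1 (gene ID 13075; chromosome 9, 54073221 to 54175448, minus strand) had 0.279, 0.211 and 0.209 FPKM in cKO, against 0.259, 0.149 and 0.132 FPKM in WT. These values rest on 15, 11 and 12 reads in cKO, against 14, 8 and 8 reads in WT. Both groups overlapped and replicate 1 was the highest of each. Exact Poisson 95% intervals ran from 0.156 to 0.459 FPKM for the highest library, cKO replicate 1, and from 0.0571 to 0.260 FPKM for the lowest, WT replicate 3; they cover counting error only. All 6 libraries lay above the level that 3 reads allow, at most 0.0575 FPKM. Its within-group CV of 27.3% was below the 29.7% that counting alone gives, so the replicates of a group spread no more than their reads alone would. With no filter the log2 fold change was 0.06 (SE 0.06, interval -0.08 to 0.21; limma adjusted p = 0.907) on a scale that compresses values below 1 FPKM. The non-coding Gm51676 that overlaps it on the other strand was listed at 0.

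The side branch to 5-alpha-reduced steroids was present at a low level. Srd5a1 (gene ID 78925; chromosome 13, 69721568 to 69759611, minus strand) had 1.59, 1.79 and 1.56 FPKM in cKO, against 1.60, 2.38 and 1.61 FPKM in WT. WT replicate 2 was the high library and the other 5 lay close together. Means were 1.65 ± 0.128 FPKM in cKO and 1.86 ± 0.447 FPKM in WT (SD, n = 3 each), a log2 fold change of -0.10 (SE 0.16; limma adjusted p = 0.962), which was 0.02 without WT replicate 2. Of its 50-base stretches, 15.1% also occur in the gene model Gm17108. Srd5a2, which encodes a second 5-alpha-reductase, had 2.20, 2.07 and 1.84 FPKM in cKO, against 1.25, 3.12 and 1.35 FPKM in WT, so both genes were highest in WT replicate 2.

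The defining enzymes of the adrenal cortex were at or near the floor. Cyp21a1, the 21-hydroxylase gene, was listed at 0 in all 6 libraries, which allows at most 0.0927 FPKM at 3 reads. Cyp11b1 and Cyp11b2, for the last steps of corticosterone and aldosterone synthesis, had at most 3 reads and 1 read in a library. Mc2r, the receptor for adrenocorticotropin, had 0.377 to 1.05 FPKM in cKO and 0.712 to 0.864 FPKM in WT. The 6 adrenal cortex markers, Akr1b7 included, summed to 4.17, 5.37 and 3.45 FPKM in cKO, against 2.22, 3.67 and 2.93 FPKM in WT. Akr1b7 was the largest part in every library, at 2.95, 2.62 and 1.77 FPKM in cKO against 1.10, 2.03 and 1.72 FPKM in WT. Nearly all the rest was Mrap and Mc2r, so the sum says little of the defining enzymes.

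Supply of cholesterol and electrons was described by 14 other genes, of which 13 were tested and none rose or fell, with a median log2 fold change of 0.01. Fdxr, the reductase that feeds FDX1, had 24.4 ± 1.72 FPKM in cKO and 19.9 ± 4.78 FPKM in WT (SD, n = 3 each), a log2 fold change of 0.30 (limma adjusted p = 0.955), which was 0.14 without WT replicate 1. Cyb5a, whose cytochrome b5 aids the lyase reaction of CYP17A1, had 88.3, 119 and 83.8 FPKM in cKO, against 75.3, 83.5 and 81.8 FPKM in WT. Every cKO value of Cyb5a lay above every WT value, which 4.2% of all tested genes showed. Its log2 fold change was 0.25 (limma adjusted p = 0.955), and 0.10 without cKO replicate 2. Stard5, for a cholesterol-binding relative of StAR, had a log2 fold change of 0.13. Soat1, which esterifies cholesterol, was at 63.8 ± 7.49 FPKM in cKO and 70.8 ± 10.6 FPKM in WT, and Scarb1, the receptor for high-density lipoprotein, at 16.6 ± 2.73 FPKM in cKO and 18.7 ± 2.96 FPKM in WT (SD, n = 3 each).

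Genes that reduce, conjugate or clear steroids numbered 15, of which 10 were tested and none rose or fell, with a median log2 fold change of -0.05. Cyp7b1, an oxysterol and steroid hydroxylase, had 3.05 ± 0.184 FPKM in cKO and 3.87 ± 0.561 FPKM in WT (SD, n = 3 each). Every cKO value of Cyp7b1 lay below every WT value, which 3.67% of all tested genes showed. Its log2 fold change was -0.26 (limma adjusted p = 0.955), and -0.17 without WT replicate 2. Sts, the steroid sulphatase, had 10.1 ± 0.274 FPKM in cKO and 8.86 ± 0.407 FPKM in WT (SD, n = 3 each), a log2 fold change of 0.18. Every cKO value of Sts lay above every WT value, which 4.2% of all tested genes showed. Akr1b7 had 2.45 ± 0.607 FPKM in cKO and 1.62 ± 0.472 FPKM in WT (SD, n = 3 each), a log2 fold change of 0.40, which was 0.25 without WT replicate 1. The oestrogen sulphotransferase Sult1e1 had a single read, in cKO replicate 1.

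All 18 regulators of steroidogenic genes were tested and none rose or fell, with a median log2 fold change of -0.18. Means were higher in cKO for 6 and lower for 12, beside 7098 and 7491 of all 14589 tested genes. For 10 of the 18 WT replicate 1 was the highest library, and the part of that library in the negative median was not tested. Nr0b2, the corepressor SHP, had 2.24, 2.41 and 2.91 FPKM in cKO, against 1.07, 1.75 and 2.12 FPKM in WT. Nr0b1, the corepressor DAX-1, had 9.80, 9.89 and 9.40 FPKM in cKO, against 5.56, 9.33 and 8.20 FPKM in WT. They were the 2 of the 18 with every cKO value above every WT value, beside 4.2% of all tested genes. None had every cKO value below every WT value, beside 3.67%. The log2 fold changes of Nr0b2 and Nr0b1 were 0.43 and 0.32, with an adjusted p of 0.955 each in limma. Without WT replicate 1, the lowest library for both, these were 0.26 for Nr0b2 and 0.13 for Nr0b1. Nr4a1, an immediate early nuclear receptor, had 0.853, 0.731 and 1.32 FPKM in cKO, against 1.77, 4.43 and 1.05 FPKM in WT, a log2 fold change of -0.68 (limma adjusted p = 0.955), and -0.29 without WT replicate 2, the high library. Foxl2, the granulosa cell factor that acts on Cyp19a1 and Star, had 95.3 ± 11.9 FPKM in cKO and 116 ± 42.3 FPKM in WT (SD, n = 3 each).

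**Figure D3:**
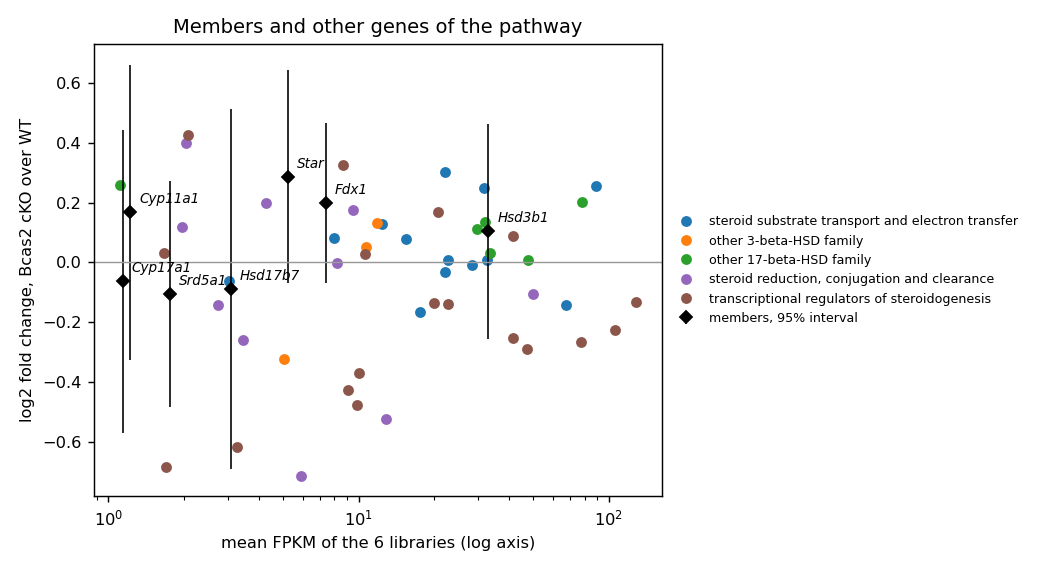
Mean FPKM of the 6 libraries (log axis) against the log2 fold change of Bcas2 cKO over WT, for the 7 tested members (diamonds, 95% intervals) and the tested genes of the other pathway lists (coloured points). All 7 intervals include 0, and the widest spread of points is among the regulators, from -0.68 to 0.43, and the clearance genes, from -0.71 to 0.40.

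Across libraries the 9 genes did not move as a block. WT replicate 1 was the highest library for 4 of them (Hsd3b1, Hsd17b7, Cyp11a1 and Hsd17b1), beside 27.6% of all tested genes, and the lowest for Star. WT replicate 3 was the lowest for 4 (Fdx1, Hsd3b1, Hsd17b1 and Cyp19a1), beside 17.8% of all tested genes. Hsd3b1 was 7.46, 5.25 and 5.15 times Star in cKO, against 10.7, 5.59 and 5.51 times in WT, so the balance of the most abundant enzyme to the carrier was shifted in WT replicate 1. Hsd3b1 was 31.2, 23.6 and 22.9 times Cyp11a1 in cKO, against 23.4, 45.9 and 26.5 times in WT, where WT replicate 2 stood out. Over the 6 libraries Pearson's r on log2(FPKM + 1) was -0.20 between Star and Cyp11a1 and -0.64 between Cyp11a1 and Cyp17a1. Other members moved together more. Cyp11a1 had r of 0.69 with Hsd3b1, 0.75 with Hsd17b1 and 0.73 with Hsd17b7, and Hsd3b1 had 0.78 with Hsd17b1. Between Hsd3b1 and Cyp19a1 r was 0.96, but Cyp19a1 rests on 8 to 15 reads per library. All these are descriptions of 6 points that share depth and tissue make-up. Surface epithelium markers, in contrast with stroma, were lowest in WT replicate 1, at 823, 897 and 996 FPKM in cKO against 455, 998 and 867 FPKM in WT. The part of that library's composition in the members' values was not tested.

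**Figure D4:**
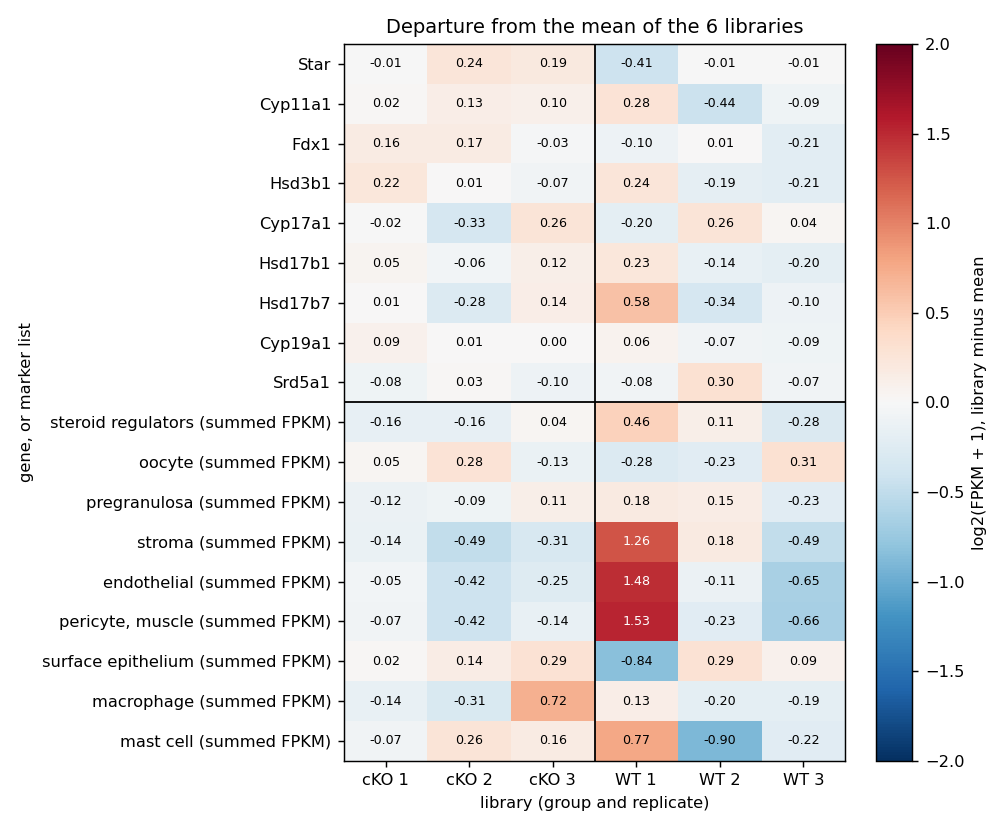
Departure of each library from the mean of the 6 libraries, on log2(FPKM + 1), for the 9 genes (above the line) and for the summed FPKM of marker lists (below it); red is higher and blue lower, and cKO libraries are left of WT. WT replicate 1 departs most in stroma (1.26), endothelial (1.48) and pericyte (1.53) markers, and Hsd17b7 (0.58) is the member with the largest departure; the mast cell list was chosen after values were seen.

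For the 2 tested members with the widest range over the libraries, the genes with the most similar pattern were sought among 9072 genes with a mean of at least 5 FPKM. For Hsd17b7, whose log2(FPKM + 1) spanned 0.92, they were Tjap1 (r = 0.99), Tmem120a (r = 0.99) and Wac (r = 0.99), all over 6 libraries and all highest in WT replicate 1. As many as 134 genes had r above 0.9 with it, so these 3 are not singled out by much. For Cyp11a1, which spanned 0.71, they were Cma1 (r = 0.99), Cpa3 (r = 0.99) and Tpsb2 (r = 0.98), and 42 genes had r above 0.9. These 3 encode proteases of mast cell granules. Cma1 had 35.8, 48.6 and 43.4 FPKM in cKO, against 53.5, 16.4 and 31.4 FPKM in WT. Cpa3 had 20.8, 22.7 and 23.7 FPKM in cKO, against 31.0, 12.1 and 18.3 FPKM in WT. Like Cyp11a1, both were highest in WT replicate 1, lowest in WT replicate 2 and close together in cKO. A list of 12 mast cell genes, drawn up after this was seen, summed to 116, 147 and 137 FPKM in cKO, against 209, 65.3 and 105 FPKM in WT. That sum is carried by Cma1, Cpa3 and Tpsb2, which were picked for following Cyp11a1 and are the 3 of the 12 with r above 0.9, so its pattern is fixed by that choice. The 9 other genes summed to 27.5, 32.1 and 27.8 FPKM in cKO, against 61.2, 19.5 and 23.1 FPKM in WT, with r between -0.16 (Ms4a2, a subunit of the IgE receptor) and 0.75. Fcer1a, another subunit of that receptor, was at 0 in WT replicate 1 and at most 0.30 FPKM elsewhere. The part of mast cells in the Cyp11a1 values was not tested.

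**Figure D5:**
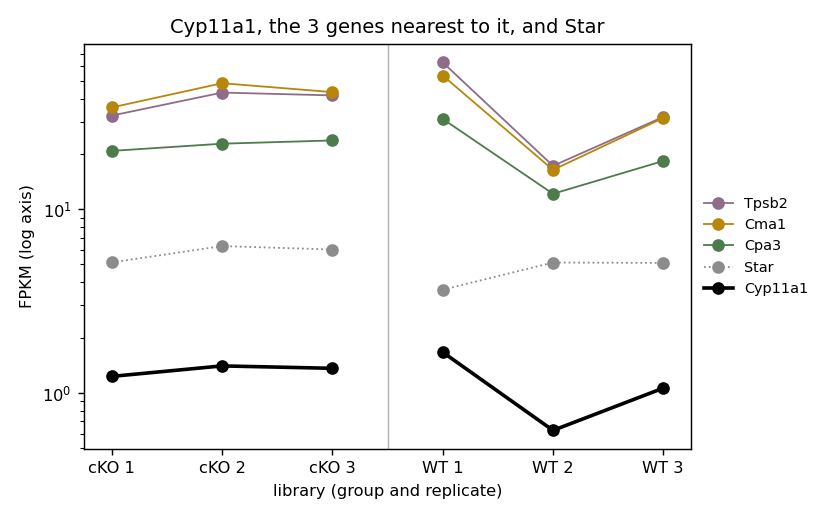
FPKM (log axis) of Cyp11a1, the 3 genes with the most similar pattern (Cma1, Cpa3 and Tpsb2) and Star in each library, cKO left of WT. Cyp11a1 and its 3 neighbours are highest in WT replicate 1 and lowest in WT replicate 2, whereas Star is lowest in WT replicate 1.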

How the data were processed

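Total RNA of 6 ovary libraries was sequenced. The authors deposited FPKM values, and the tool HISAT2 2.0.5 and the builds GRCm39 and mm10 appear per the submitters' processing notes. The table's coordinates are GRCm39. The sources used here do not give the counter, the annotation release or the strand setting. FPKM times gene length came out as whole reads (within 0.05) for 100% of the values checked, and these reads give depth and counting error.

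Groups and replicate numbers came from the titles. Values were tested as log2(FPKM + 1), which understates the change of low genes, for genes with at least 1 FPKM in at least 3 of 6 libraries (14589 genes), with limma 3.58.1 in R 4.3.3 (trend in the prior spread, two-sided, Benjamini-Hochberg over all tested genes, threshold 0.05). The code was tested on simulated data. Intervals are 95% intervals. The floor is 3 reads in a library.

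Named genes were the 9 members, Bcas2, the 3 genes of each pathway list with the smallest unadjusted p, genes listed at 0, markers, and for 2 members the 3 most correlated genes; others were picked to show a role, after their values were seen. Members and lists were chosen with earlier results of these data known. Naming genes by smallest p favours genes whose groups do not overlap. Hsd3b8 and Hsd3b9 were not matched by symbol; Hsd17b8 was matched through a RefSeq synonym. Shared 50-base stretches and transcript lengths came from GENCODE M21 (GRCm38) by symbol, and start windows from RefSeq (GRCm38.p6). Alternatives covered pseudocounts, filters, scaling, library weights, a replicate block, voom on the recovered reads and each library left out.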

Additional observations from a re-analysis of the deposited data

How the results depend on the processing

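None of the members was called under any of the 16 alternatives, and of 108 pairs of a tested member and an alternative, 101 kept the direction of the fold change, with a lowest adjusted p of 0.324 in limma. Over all genes, 1 was called with library weights (Mir6999) and 0 to 1 with a library left out (Pcna-ps2, without cKO replicate 2), while 0 were called by limma-voom on the recovered reads, which gave 360 at an unadjusted p under 0.05. The count at an unadjusted p under 0.05 was 1147 with no filter, 254 with a filter at 5 FPKM, 1990 with library weights and 253 to 1056 with a library left out. The median log2 fold change of the tested members was 0.20 with the filter at 5 FPKM, which leaves Hsd3b1, Fdx1 and Star, 0.026 after rescaling to TPM, which moves the median of all genes to -0.08, and 0.021 to 0.18 with a library left out. Leaving out a library gave 0.021 to 0.25 for Hsd3b1, 0.15 to 0.36 for Star, 0.14 to 0.26 for Fdx1, -0.28 to 0.18 for Hsd17b7, -0.0089 to 0.35 for Cyp11a1, -0.21 to 0.089 for Cyp17a1, -0.17 to 0.021 for Srd5a1 and -0.50 to 0.040 for Hsd3b6. Library weights gave values outside these ranges for the tested members. They were 0.43 for Cyp11a1, 0.27 for Hsd3b1, 0.25 for Hsd17b7, 0.13 for Fdx1, 0.12 for Star, -0.23 for Cyp17a1 and -0.32 for Srd5a1. In limma with these weights the unadjusted p was 0.023 for Cyp11a1, 0.030 for Hsd3b1 and 0.034 for Srd5a1, and above 0.05 for the other tested members. The weights put 1990 of all 14589 tested genes under 0.05, against 443 in the main fit, so small p-values were more common over the whole table. Library weights also gave -0.029 for Hsd17b2, and TPM gave -0.023 for Nsdhl. The cause was not tested. Median-of-ratios factors were the same in every library, so that scaling could only repeat the main fit, although it is counted among the 16 alternatives and the 108 pairs. Deviations of same-numbered libraries correlated at 0.22, 0.01 and -0.03, and 1 of the 3 cKO libraries was closest to its own number. With 3 libraries per group this cannot decide whether the numbers pair the samples, and the labels state no pairing. With the replicate block 0 genes were called and 432 had an unadjusted p under 0.05 in limma. Rescaling the same reads to the GENCODE length, with no recount, was an alternative chosen after seeing the data. It gave Hsd17b1 a mean of 1.20 FPKM over the 6 libraries and Cyp17a1 0.873 FPKM, the reverse of their order at the table's lengths. Depth limits Cyp19a1 most.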

Other observations

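Several genes of the clearance and regulator lists were highest in WT replicate 1. Hsd11b2, which inactivates glucocorticoids, had 4.82, 2.41 and 3.15 FPKM in cKO, against 17.4, 5.64 and 1.97 FPKM in WT. Nr5a2, the receptor LRH-1, had 1.87, 1.49 and 2.14 FPKM in cKO, against 10.8, 1.68 and 1.56 FPKM in WT. Cyp1b1, an oestrogen hydroxylase, had 12.6, 8.69 and 7.75 FPKM in cKO, against 28.7, 11.3 and 8.41 FPKM in WT. Akr1c18, which inactivates progesterone, had 5.95, 3.77 and 2.61 FPKM in cKO, against 9.48, 0.961 and 2.86 FPKM in WT. None of these 4 passed the test (limma adjusted p = 0.955 or more). Mrap, which accompanies the adrenocorticotropin receptor, had 0.17, 2.20 and 1.28 FPKM in cKO, against 0.255, 0.852 and 0.492 FPKM in WT, on 4 to 50 reads. These genes were chosen after their values were seen.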
